A study of Mus musculus with 8 samples.

Results

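The mural cell genes described here are 8 genes taken by their symbols, *Rgs5*, *Kcnj8*, *Abcc9*, *Notch3*, *Cspg4*, *Higd1b*, *Acta2* and *Tagln*, out of 28001 features counted in 8 single-cell RNA-seq libraries of the embryonic mouse forelimb. Mural cells sit on the outside of blood vessels. Pericytes wrap capillaries, and vascular smooth muscle cells wrap arterioles, arteries and veins. Endothelial cells draw mural precursors to the vessel by secreting PDGF-B, which is read by the receptor PDGFRB, and instruct them through Jagged ligands that bind NOTCH3. Pericytes carry an ATP-sensitive potassium channel. They have little contractile protein, whereas smooth muscle cells build a contractile apparatus of actin, myosin and their partners. None of the genes is exclusive to mural cells in other tissues.

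The study labelled cells that expressed *Hic1*, and the descendants of those cells, in C57BL/6J embryos of the genotype Hic1CreERT2/CreERT2;Rosa26LSLtdTomato/tdTomato. Dams received 7.5 mg of tamoxifen in 300 µL of oil by gavage on embryonic day (E) 10, and tdTomato+ mesenchymal progenitors (MPs) were sorted at 5 stages from E11.5 to E16.5, with 1 library at each. At E16.5 the limb was divided into a proximal segment around the elbow and a distal segment of the lower zeugopod and autopod, with 1 library each. A pair of further libraries held E11.5 forelimb cells with and without tdTomato (whole limb 1 and 2), which is the only replicated group. Limbs of several embryos were pooled, and the sort removed cells stained for CD31, CD45, CD117, CD11b, F4/80 or Ter119, so endothelial and blood cells were depleted by design. All embryos carried both alleles in the homozygous state, and the label marks only cells that expressed *Hic1* near the time of tamoxifen and their progeny.

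Cells with at least 3000 unique molecular identifiers (UMIs, counted RNA molecules) and at most 10% mitochondrial UMIs were kept, 53085 of 57469 barcodes. Kept cells numbered 3165 to 11109 per library and held 31500092 to 234893903 UMIs, with medians of 6788 to 18473 UMIs per cell. The reagent kit changed after E13.5, from an older to a newer version. A change between E13.5 and E14.5 thus cannot be told apart from the change of kit. By the paper's methods, limbs were digested with Dispase at E11.5 and E12.5, and with collagenase and Pronase from E13.5 on. A change between E12.5 and E13.5 therefore cannot be told apart from the change of digestion. Forelimbs were divided only at E16.5. In comparisons that span these steps, such as E11.5 against E16.5 proximal, stage, digestion, kit and limb part differ together. Levels are UMIs of a gene per 1000000 UMIs summed over all kept cells (CPM), and a level summed over cells cannot tell more expressing cells from more RNA per cell. Shares of cells with a UMI were counted after each cell had been thinned at random to 3000 UMIs. Intervals are exact 95% Poisson (levels, ratios) or binomial (shares) intervals and cover counting error only. The 2 whole limb libraries differed beyond sampling noise, any pair of libraries shared at most 48 barcodes, and a doublet caller marked 0 to 5 cells per library, which is too few to have worked, so doublets were kept.

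*Rgs5* encodes a regulator of G protein signalling and lies on chromosome 1 (GRCm38, chr1:169655501-169695813, plus strand). *Kcnj8* encodes the pore subunit of the ATP-sensitive potassium channel and *Abcc9* its sulfonylurea receptor subunit. The pair are neighbours on the minus strand of chromosome 6, at chr6:142564837-142571614 and chr6:142587862-142702315, 16247 bp apart. *Notch3*, the Notch receptor of mural cells, lies at chr17:32120820-32166852 on the minus strand. *Cspg4*, which encodes the NG2 proteoglycan, lies at chr9:56865033-56899870 on the plus strand. *Higd1b*, a hypoxia-inducible domain family member used as a pericyte marker, lies at chr11:102835849-102838040 on the plus strand. *Acta2*, smooth muscle actin, and *Tagln*, the actin-binding protein transgelin, lie on the minus strand at chr19:34241090-34255590 and chr9:45929619-45936058.

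The bases just upstream of the annotated start are shown for *Rgs5*, *Kcnj8* and *Abcc9*, the genes whose joint detection in a cell is followed below, each 5′ to 3′ on the gene's own strand from RefSeq (GRCm38.p6). They span chr1:169655251-169655500 (plus), chr6:142571615-142571864 (minus) and chr6:142702316-142702524 (minus), and capitals mark a match to GGGCGG on either strand, the only word searched that was found in them.
Rgs5: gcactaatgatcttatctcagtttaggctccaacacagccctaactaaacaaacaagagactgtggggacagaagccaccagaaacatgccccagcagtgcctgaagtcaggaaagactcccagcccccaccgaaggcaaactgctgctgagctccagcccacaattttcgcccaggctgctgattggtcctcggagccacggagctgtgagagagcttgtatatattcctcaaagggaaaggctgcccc
Kcnj8: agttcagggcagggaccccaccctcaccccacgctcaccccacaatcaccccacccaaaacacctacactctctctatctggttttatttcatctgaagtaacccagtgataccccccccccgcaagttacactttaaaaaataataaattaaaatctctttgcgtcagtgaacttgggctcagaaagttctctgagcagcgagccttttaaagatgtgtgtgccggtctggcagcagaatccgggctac
Abcc9: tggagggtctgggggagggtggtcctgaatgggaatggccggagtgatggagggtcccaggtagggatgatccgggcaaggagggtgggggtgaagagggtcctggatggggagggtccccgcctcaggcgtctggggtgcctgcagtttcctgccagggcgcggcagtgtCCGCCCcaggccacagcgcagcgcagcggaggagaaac

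The upstream bases of the neighbouring channel genes differed in composition, with 49.2% G and C in *Kcnj8* and 68.4% in *Abcc9*, against 53.6% in *Rgs5*. Of the 8 genes, 6 had a promoter window of 250 bases before and 50 after the start in the RefSeq table, and *Higd1b* and *Tagln* did not. None of the 6 windows held an exact CArG box (CC, then 6 bases of A or T, then GG, the consensus of the serum response factor motif). None held the RBPJ word GTGGGAA. These exact words were found in 1.63% and 6.38% of 32851 windows of the same length. Sites that differ from them by a base were not searched, so none is excluded. TATAAA was in 0 of the 6 and in 13.6% of all windows, and GGGCGG was in 3 of the 6 (*Abcc9*, *Notch3* and *Cspg4*) and in 35.7% of all. The last 2 words were chosen after the sequences had been seen, both strands were searched, and a match is a description of the letters only.

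The channel genes *Kcnj8* and *Abcc9* were near the limit of detection at E11.5 and higher at every later stage of the sorted series. *Kcnj8* was at 0.159 CPM at E11.5 (5 UMIs), at 1.67, 2.49 and 5.10 CPM over the next 3 stages, and at 16.9 CPM in the proximal and 5.19 in the distal E16.5 library. *Abcc9* was at 0.190 CPM at E11.5 (6 UMIs), at 1.09, 1.39 and 3.96 CPM over the next 3 stages, and at 13.8 CPM in the proximal and 6.88 in the distal E16.5 library. Both were highest in the proximal E16.5 library, and their intervals there did not overlap those of any other library. Between E11.5 and E16.5 proximal the level of *Kcnj8* differed 106-fold (95% interval 45.5 to 327) and that of *Abcc9* 72.2-fold (33.2 to 197). The wide intervals reflect the few UMIs at E11.5, and digestion, kit and limb part differed between these libraries as well as stage.

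*Rgs5* followed another course, with an early peak and a later one. Its level from E11.5 to E14.5 was 3.75, 13.3, 11.3 and 6.33 CPM, followed by 20.2 in the proximal and 24.3 in the distal E16.5 library. The level at E12.5 was 3.56 times that at E11.5 (2.91 to 4.37), the level at E14.5 was 0.559 times that at E13.5 (0.5002 to 0.625), and that at E16.5 proximal was 3.19 times that at E14.5 (2.96 to 3.43). The share of cells with an *Rgs5* UMI at equal depth had its highest value at E12.5, 3.78% against 1.11% before it, 2.52% and 1.19% at the next 2 stages, and 1.81% and 1.70% in the proximal and distal E16.5 libraries. The most *Rgs5* UMIs in any cell from E11.5 to E14.5 were 4, 10, 28 and 56, and they were 160 and 209 in the proximal and distal E16.5 libraries, which were also sequenced more deeply per cell.

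*Higd1b* was the last to be detected. It had 0 UMIs in the 3 sorted libraries up to E13.5 and in both whole limb libraries, where a count of 0 still allows a level of up to 0.0952 CPM at E11.5 (3 UMIs of that library). It had 4 UMIs at E14.5 (0.0299 CPM), 393 at E16.5 proximal (1.67 CPM, 1.51 to 1.85) and 83 at E16.5 distal (0.521 CPM, 0.415 to 0.646). The E14.5 level was below the limit at E11.5, so the counts of 0 cannot show absence relative to E14.5. Against the limit at E11.5 the level at E16.5 proximal was at least 17.6-fold higher, and the exact 95% lower bound of the ratio, which also counts the error of the E16.5 level, was 14.2.

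*Notch3* and *Cspg4*, a receptor and a proteoglycan of the mural cell surface, moved differently over the same libraries. *Notch3* had nearly the same level throughout, 19.6, 24.3, 18.6 and 18.4 CPM from E11.5 to E14.5 and 19.4 and 19.99 CPM in the proximal and distal E16.5 libraries. The ratio of *Notch3* between E16.5 proximal and E11.5 was 0.987 (0.907 to 1.08). *Cspg4* was at 2.79, 3.01, 7.67 and 11.8 CPM over the same 4 stages, and at 35.7 and 54.2 CPM in the proximal and distal E16.5 libraries. Each *Cspg4* level from E13.5 on lay above the one before it, and the proximal E16.5 level was 12.8 times that at E11.5 (10.4 to 15.9).

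The contractile genes *Acta2* and *Tagln* had no steady course before E14.5. *Acta2* was at 4.70, 13.5, 7.51 and 28.6 CPM from E11.5 to E14.5, and at 75.2 CPM in the proximal and 61.4 in the distal E16.5 library. *Tagln* was at 14.4, 21.03, 4.82 and 30.3 CPM over the first 4 stages, and at 33.1 CPM in the proximal and 48.5 in the distal E16.5 library. *Tagln* was thus lowest at E13.5, at 0.229 times the E12.5 level (0.197 to 0.266), and 6.29 times higher again at E14.5 (5.49 to 7.23). The digestion changed at the first of these steps and the kit at the second. Few cells decided the *Acta2* level, since 10 cells held 48.3% of its UMIs at E14.5 and a single cell held 678, and 10 cells held 79.7% at E11.5.

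Read gene by gene against all others, the steps between libraries were called where a gene with at least 5 CPM in either library differed 2-fold or more. With 1 library a stage there is no test, and a called step compares 2 libraries. A gene well under 5 CPM in one library enters only through the library in which it is high and had to differ, so counts of called genes are descriptions here and support nothing. *Rgs5* and *Acta2* were higher at E12.5 than at E11.5, as were 2.99% of the 10259 genes compared. *Cspg4* was higher at E13.5 than at E12.5 (2.19% of genes) and *Tagln* lower (1.89%). At E14.5 against E13.5, *Kcnj8*, *Acta2* and *Tagln* were higher (5.1% of genes). From E14.5 to E16.5 proximal 5 genes, *Rgs5*, *Kcnj8*, *Abcc9*, *Cspg4* and *Acta2*, were 2.63- to 3.47-fold higher (7.7% of genes). Over the whole span from E11.5 to E16.5 proximal 6 of the 7 genes with enough counts were higher, against 14.6% of all genes higher and 30.2% lower, *Notch3* was the exception, and *Higd1b* stayed under 5 CPM. Of those 6 only *Tagln* had 5 CPM or more at E11.5.

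**Figure D1:**
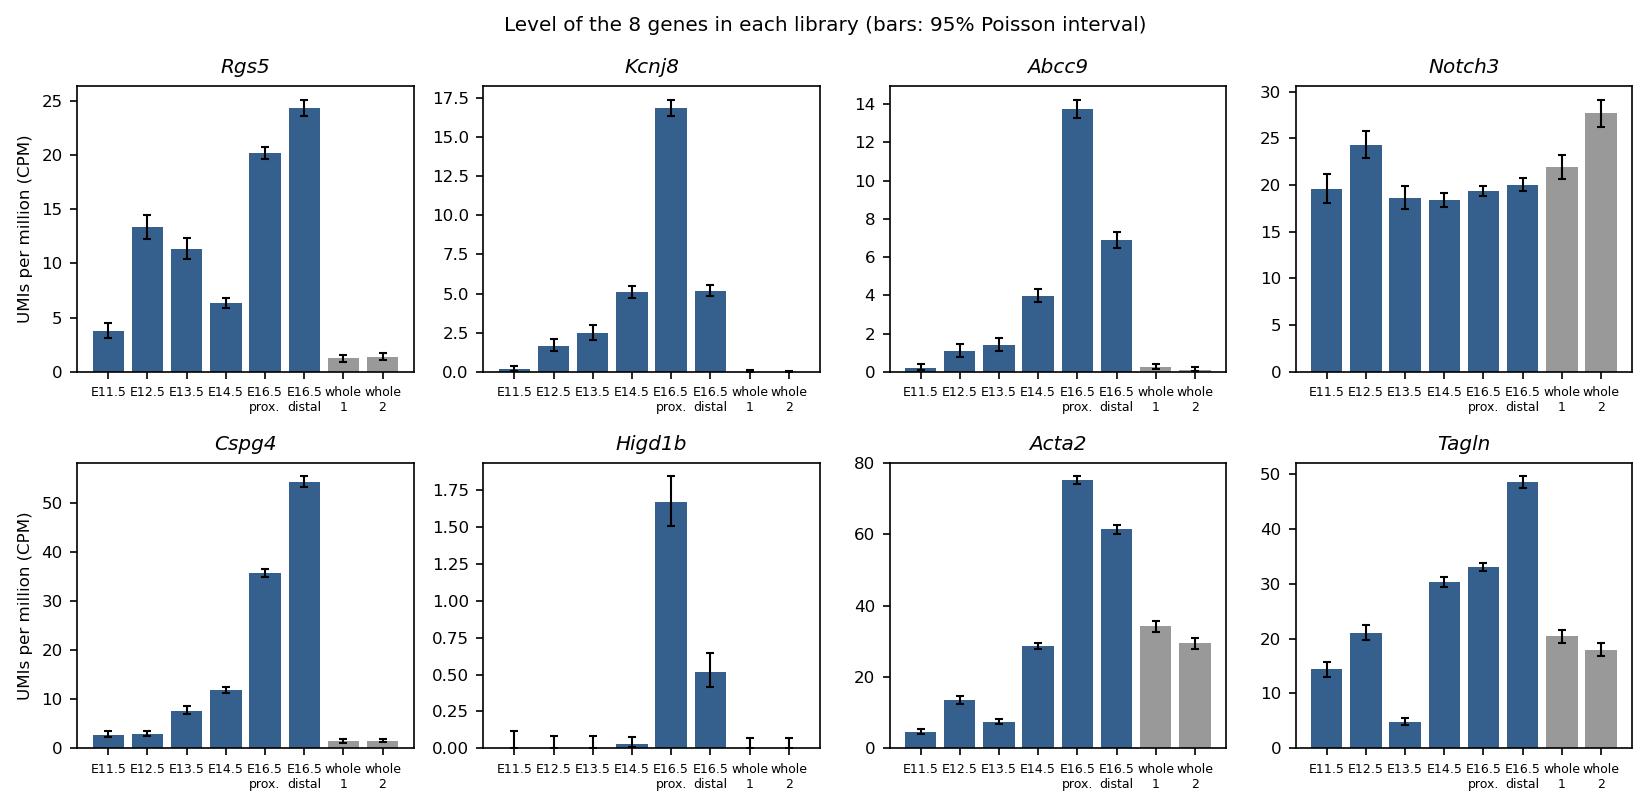
Level of each of the 8 genes (y axis, CPM, from 0) in the 6 sorted libraries (blue) and the 2 whole limb libraries (grey), with 95% Poisson intervals; each panel has its own scale. *Kcnj8* and *Abcc9* are highest at E16.5 proximal, *Rgs5* has an early and a late high, *Notch3* stays between 18.4 and 27.7 CPM, and *Higd1b* is seen in numbers only at E16.5.

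The stage at which single cells first carried *Rgs5* together with a channel gene was taken as the first library with at least 3 cells that held a UMI of *Rgs5* and a UMI of *Kcnj8* or *Abcc9* at 3000 UMIs per cell. The E11.5 library held 0 such cells of 3165, which puts the share at 0.0948% or less, and the whole limb libraries held 0 (limits of 0.0549% and 0.0528%). There were 4, 7 and 8 cells over the next 3 stages (0.0849%, 0.114% and 0.0955% of cells), 104 in the proximal E16.5 library (0.936%, 0.766 to 1.13) and 46 in the distal one (0.545%, 0.399 to 0.726). The intervals of the 3 middle stages overlapped with each other and with that of E11.5, and both E16.5 libraries lay above them. Without thinning the sorted libraries held 1, 14, 14, 38, 239 and 86 such cells in the same order, and whole limb 1 held 1. By the count of 3 cells alone the first stage was E12.5, but it was E14.5 when 2 UMIs of each partner were asked for (1, 1 and 3 cells at the 3 middle stages) or 4 of the 8 genes (0, 1 and 10 cells). With cells thinned to 1000 UMIs it was E16.5 proximal (0, 1, 0 and 2 cells over the first 4 stages, then 47). The plan also asked for a share above that in epithelial-like or myogenic-like cells. These held 0 co-detecting cells, with limits of 0.318% (epithelial-like, E16.5 proximal) and 0.949% and 1.02% (myogenic-like, whole limb 1 and 2). The shares at the 3 middle stages lay below these limits, so this condition could not be decided for them.

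The stages from E11.5 to E16.5 proximal were clustered together, and most of these clusters drew their cells from few stages, so cells of different stages lay largely in different clusters whichever genes they held. Of the 4 co-detecting cells at E12.5, 2 lay in a cluster led by *Sall3* and *Egr4* that carried markers of early mesenchymal progenitors and 2 in an unnamed cluster led by *Pcp4*, and 0 had 3 or more of the 12 pericyte markers used for naming, none of which is among the 8 genes. At E13.5, 3 of the 7 lay in an unnamed cluster led by *Gm13889*, *Ccl2* and *Myh11* in which mural and endothelial markers were mixed, 3 in an unnamed cluster led by *Stmn2* and 1 in the *Pcp4* cluster. The *Myh11* cluster held 7 of the 8 at E14.5. In the proximal E16.5 library it held 95 of the 104. Summed over the co-detecting cells of a stage, the pericyte markers made up 269.7, 946 and 1509 CPM at the 3 middle stages, and 2364 and 3072 CPM in the proximal and distal E16.5 libraries. The same markers made up 1032 CPM in the proximal and 743 CPM in the distal epithelial-like cells at E16.5. The sum at E12.5 was below both of these and that at E13.5 lay between them, but stage and kit differ. Over all cells of the same stage the markers made up 82.4 CPM at E12.5, 67.1 at E13.5 and 94.3 at E14.5. At E13.5, 3 of the 7 co-detecting cells held 3 or more pericyte markers, against 6 of all 6123 cells. Of the 943 proximal epithelial-like cells 0 did.

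Whether *Rgs5* and the channel genes met in a cell more often than each was found alone was read from cells with and without *Rgs5*. At E12.5, 2.25% of the 178 cells with *Rgs5* held a channel gene (0.616 to 5.65), against 0.485% of those without (0.304 to 0.733). At E14.5 the shares were 8.0% (3.52 to 15.2) and 1.84% (1.56 to 2.15). At E16.5 proximal 51.7% of the 201 cells with *Rgs5* held *Kcnj8* or *Abcc9* (44.6 to 58.8), against 5.89% of the others, and at E16.5 distal the shares were 31.9% (24.4 to 40.2) and 1.82%. The intervals with and without *Rgs5* were apart from E13.5 on and overlapped at E12.5. At E16.5 proximal *Acta2* was found in 55.7% of cells with *Rgs5* and 5.09% of cells without, *Tagln* in 35.3% and 3.795%, *Notch3* in 28.9% and 4.33%, and *Cspg4* in 13.4% and 8.65%. Depth was the same in all these cells, but cells were not replicates and each stage was 1 library.

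All 28 pairs of the 8 genes were seen in at least 1 cell in both E16.5 libraries, against 7, 16, 16 and 22 pairs from E11.5 to E14.5. The most genes found in any cell were 3, 3, 4 and 5 over these 4 stages, 7 in the proximal and 6 in the distal E16.5 library, and no cell held all 8. Epithelial-like cells served as the reference for *Rgs5* and the channel genes, which were at 0.612 (*Rgs5*), 0.889 (*Kcnj8*) and 0.584 CPM (*Abcc9*) in them in the proximal E16.5 library. For *Notch3*, at 28.1 CPM there, they are no such reference. With every cell thinned to 3000 UMIs, 0 of 943 of these epithelial-like cells co-detected *Rgs5* and a channel gene, which limits the share to 0.318%, and *Rgs5* alone was found in 0.212% of them.

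**Figure D2:**
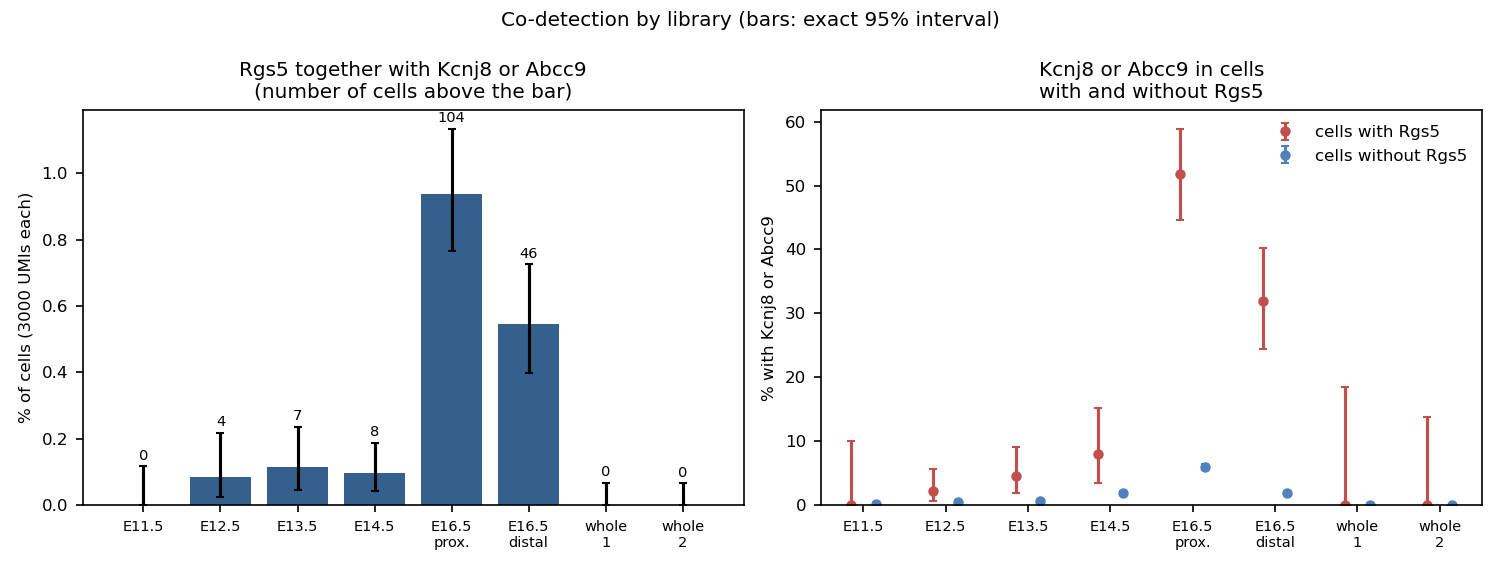
Left, share of cells (y axis, %) holding a UMI of *Rgs5* and a UMI of *Kcnj8* or *Abcc9* at 3000 UMIs per cell in each library, with the number of cells above each bar; right, share of cells with *Kcnj8* or *Abcc9* among cells with (red) and without (blue) *Rgs5*. Bars are exact 95% intervals. Both E16.5 libraries stand above all others, with 104 and 46 cells.

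At E16.5 the cells of both segments were clustered together with the 8 genes left out, and 7 of the 8 genes had their highest level in the same cluster of 669 cells (450 proximal, 219 distal). That cluster was called pericyte-like because 10 of 12 pericyte markers were raised in it. It had 476 CPM of *Rgs5*, 114 of *Kcnj8*, 102 of *Abcc9*, 104 of *Notch3*, 23.4 of *Higd1b*, 1330 of *Acta2* and 482 of *Tagln*. The exception was *Cspg4*, highest in the 2 chondrocyte-like clusters at 221 (212 to 230) and 214 CPM (207 to 221), intervals that overlap, followed by a *Pi16* fibroblast-like cluster at 67.3 and the pericyte-like cluster at 50.4 CPM. Because genes of the same cells made the clusters, these levels are descriptions and carry no test.

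The genes differed in where they came next after the pericyte-like cluster. *Kcnj8* and *Abcc9* were both found in fibroblast-like cells, at 56.7 and 36.3 CPM in a cluster led by *Wfdc18*, *Ly6a* and *Wnt2* and at 20.8 and 21.0 CPM in one led by *Sfrp4* and *Cbln2*. *Rgs5* came next in an unnamed cluster led by *Btc* and *Lrp1b* at 12.1 CPM, and then at 5.21 CPM in tenocyte-like cells and 5.01 in the *Pi16* cluster, whose intervals overlap. *Notch3* came next in epithelial-like cells led by *Krt1*, at 34.8 CPM, and no cluster was below 3.99. *Tagln* came next in the *Pi16* fibroblast-like cluster at 86.8 CPM and the *Btc* cluster at 66.9, and *Acta2* in the *Wfdc18* cluster at 38.6. *Higd1b* had 1.27 CPM or less everywhere else. The median level over the 22 clusters was 1.69 CPM for *Rgs5*, 3.60 for *Kcnj8*, 2.16 for *Abcc9*, 13.3 for *Notch3*, 30.8 for *Cspg4*, 0.0565 for *Higd1b*, 13.04 for *Acta2* and 17.2 for *Tagln*.

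**Figure D3:**
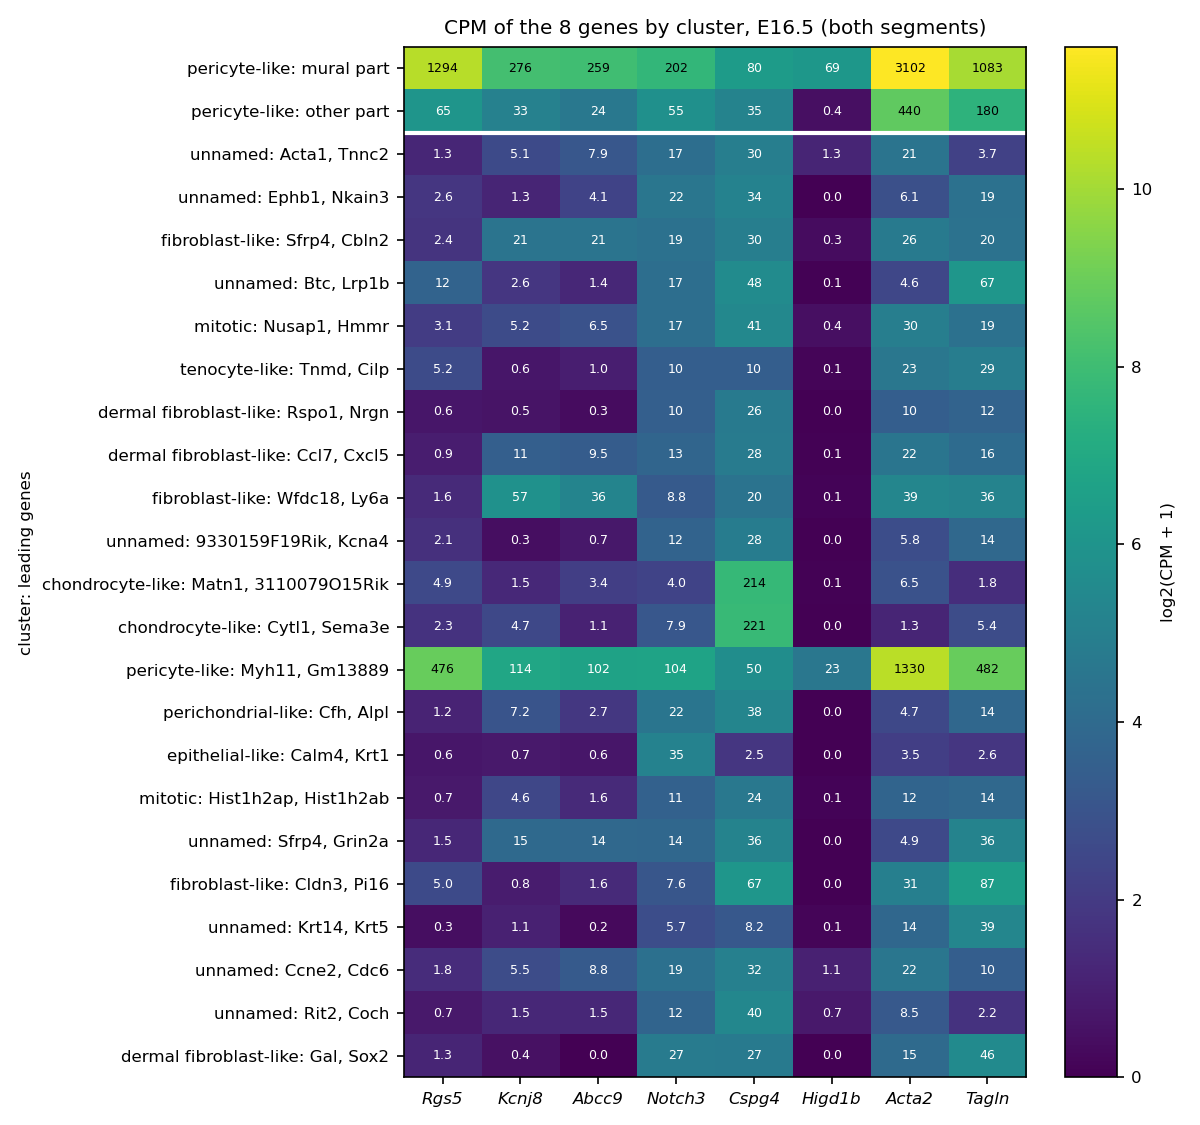
Level of the 8 genes (columns) in the E16.5 clusters (rows, named by class and leading genes), as CPM printed in each cell and coloured on a log2(CPM + 1) scale; the 2 rows above the white line are the parts of the pericyte-like cluster. The mural part has the highest level of every gene but *Cspg4*, which is highest in chondrocyte-like cells at 214 and 221 CPM.

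Finer clustering divided the pericyte-like cluster. A mural part of 226 cells (160 proximal, 66 distal) was led by *Myh11*, *Gm13889*, *Actg2*, *Esam* and *Gja4* with 12 of 12 pericyte markers raised, and the other 443 cells were mostly a cluster led by *D630033O11Rik*, *Ccl11* and *Cxcl5* that carried perineurial markers. The mural part held 1.55% of all proximal and 1.06% of all distal UMIs. Its share of a gene's UMIs in the proximal and distal library was 79.9% and 80.97% for *Rgs5*, 74.3% and 93.98% for *Higd1b*, 51.1% and 77.3% for *Acta2*, 36.5% and 38.2% for *Tagln*, 29.1% and 40.2% for *Abcc9*, 28.7% and 41.04% for *Kcnj8*, 14.03% and 13.88% for *Notch3*, and 3.03% and 2.03% for *Cspg4*. In both segments *Rgs5*, *Higd1b* and *Acta2* thus had most of their RNA in the mural part and the other 5 genes had most of it in other cells, while the order of *Tagln* and the channel genes differed between segments. In the remaining part of the pericyte-like cluster *Acta2* was at 576 CPM proximally and 202 distally, *Tagln* at 226 and 100.05, *Rgs5* at 88.6 and 24.2, *Kcnj8* at 44.3 and 13.92, and *Higd1b* had 4 UMIs proximally and 0 distally. Against the cells outside the pericyte-like cluster 6 of the 8 genes were called higher in it in each segment, where 3.86% (proximal) and 3.71% (distal) of all genes were, and *Cspg4* was not. *Rgs5* in both segments, and *Kcnj8* and *Abcc9* distally, were under 5 CPM outside the cluster and entered through it, so nothing is read from this count.

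Set against all other cells of the same library, 7 of the 8 genes were at least 2-fold higher in the mural part in each segment, where 8.72% (proximal) and 8.92% (distal) of all genes were. *Rgs5* and *Higd1b* in both segments, and *Kcnj8* and *Abcc9* distally, were under 5 CPM outside the mural part and entered this comparison through it. In the proximal library *Rgs5* was at 1036 CPM in the mural part and 4.12 outside it, *Kcnj8* at 312 and 12.2, *Abcc9* at 258 and 9.90, and *Notch3* at 175 and 16.9. In the distal library the levels were 1849 and 4.68 CPM for *Rgs5*, 200 and 3.09 for *Kcnj8*, 260 and 4.16 for *Abcc9*, and 261 and 17.4 for *Notch3*. *Cspg4* was not called in either, at 69.6 and 35.1 CPM proximally and 103 and 53.7 CPM distally. The ratio of *Cspg4* was 1.98 (1.74 to 2.24) proximally and 1.92 (1.64 to 2.23) distally.

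Endothelial RNA was also higher in the mural part, although the sort depleted endothelial cells. All 7 endothelial markers were above 0 in the mural part, and their summed level was 353 CPM proximally and 123 distally, against 28.4 and 23.5 in the cells outside the pericyte-like and epithelial-like clusters. *Cldn5* was at 103 CPM in the proximal and 14.2 in the distal mural part, and *Cdh5* at 50.1 and 18.3. A total of 13 of 160 proximal and 3 of 66 distal mural cells held at least 2 endothelial markers. Without them the genes were as high or higher in the mural part, with *Rgs5* at 1366 CPM against 1294 with them, *Kcnj8* at 289 against 276 and *Acta2* at 3325 against 3102 over both segments. The summed erythroid markers were higher in the mural part proximally (1104 against 18.3 CPM in the cells outside both clusters) and lower in it distally (12.97 against 27.6). A single proximal mural cell and no distal one held at least 2 erythroid markers, and the part of erythroid RNA in the results was not tested.

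Within the mural part the pericyte genes and the contractile genes were not spread evenly. At 3000 UMIs per cell, *Rgs5* was found in 78.8% of proximal and 86.4% of distal mural cells, *Kcnj8* in 55.0% and 42.4%, *Abcc9* in 52.5% and 51.5%, *Notch3* in 38.8% and 48.5%, *Acta2* in 60.0% and 72.7%, *Tagln* in 34.4% and 53.0%, *Cspg4* in 15.6% and 21.2%, and *Higd1b* in 13.8% and 13.6%. *Rgs5* with a channel gene was found in 56.9% of the proximal and 65.2% of the distal mural cells, against 3.45% and 1.31% of the remaining pericyte-like cells. Per cell and 10000 UMIs, the median of *Acta2* was 4.80 in the proximal mural part, with quartiles at 0.868 and 30.1 and the highest cell at 416. The median of *Rgs5* was 8.25, with quartiles at 4.81 and 14.7, so *Acta2* varied far more from cell to cell than *Rgs5*.

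Mural cells with and without *Tagln* differed in the other genes they held, which is given here as a description, since cells are not replicates. Among 55 cells with *Tagln*, 32.7% held *Abcc9* (20.7 to 46.7), against 62.9% of 105 cells without (52.9 to 72.1). For *Kcnj8* the shares were 41.8% (28.7 to 55.9) and 61.9% (51.9 to 71.2), which overlap. *Acta2* went the other way, at 87.3% and 45.7%, as did *Notch3*, at 56.4% (42.3 to 69.7) and 29.5% (21.0 to 39.2). *Rgs5* was found in 83.6% and 76.2%, with overlapping intervals. In the distal mural part, with 35 and 31 cells, *Acta2* again had the higher share in cells with *Tagln* (88.6% against 54.8%), *Abcc9* had 42.9% against 61.3% and *Kcnj8* 42.9% against 41.9%, with overlapping intervals, and *Notch3* had 40.0% against 58.1%, the opposite order to the proximal cells with intervals that overlap.

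**Figure D4:**
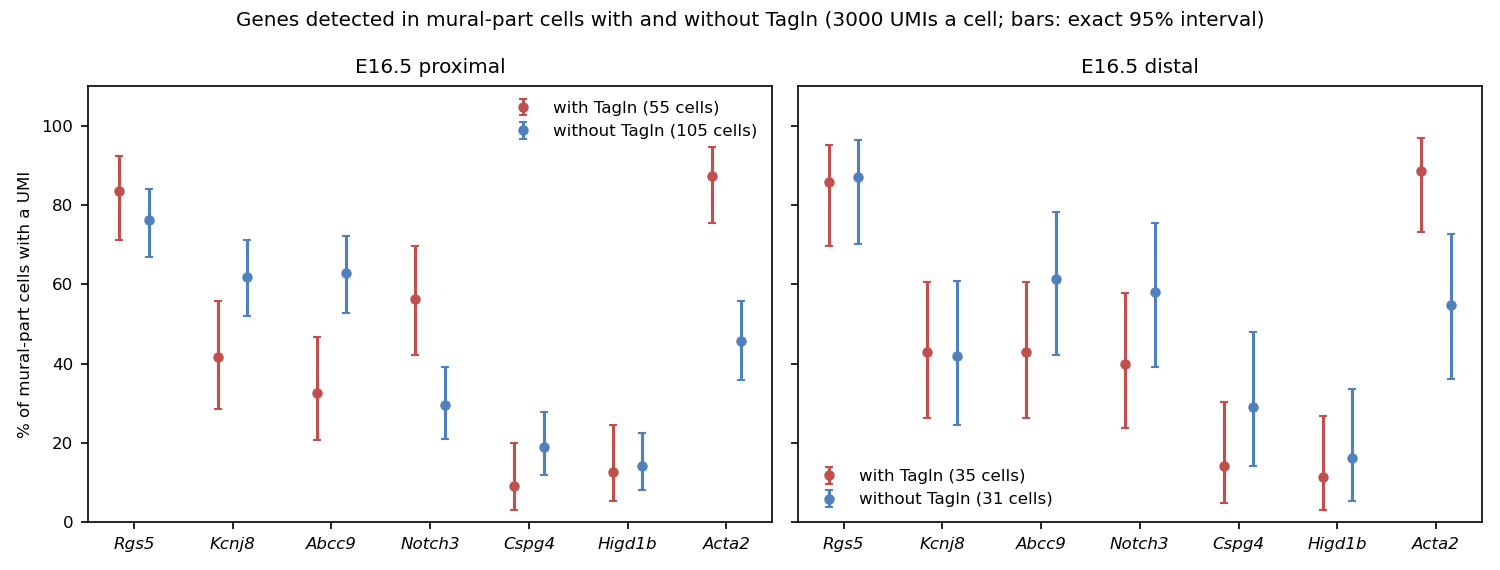
Share of mural-part cells (y axis, %) with a UMI of each gene among cells with (red) and without (blue) *Tagln*, at 3000 UMIs per cell, in the proximal (left) and distal (right) E16.5 library; bars are exact 95% intervals. *Acta2* is higher with *Tagln* in both, and *Abcc9* is lower with *Tagln* in the proximal library, 32.7% against 62.9%.

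The joint clusters of all sorted stages with E16.5 proximal were largely bound to stage. The *Sall3* cluster had 783 and 1068 cells at E11.5 and E12.5 and 0 later, and 1041 of the 1116 cells of the *Stmn2* cluster were of E13.5, so the shares of a gene by cluster describe each library and a change of cluster between stages is no result. At E12.5, 52.5% of *Rgs5* UMIs were in the 1068 early progenitor-like cells of the *Sall3* cluster (34.2 CPM, 30.5 to 38.3), and at E13.5, 48.6% were in 1041 cells of an unnamed cluster led by *Stmn2* (37.7 CPM, 33.1 to 42.6). At E14.5 the *Myh11* cluster held 38.4% of *Rgs5* UMIs in 37 cells (292 CPM, 261 to 326), and at E16.5 proximal 84.1% in 192 cells (918 CPM). At E14.5, 15 of those 37 cells held 2 or more endothelial markers, against 13 of the 192 at E16.5 proximal. Before that the cluster held only 4, 3 and 7 cells. The 4 cells at E11.5 held 80 of the 148 *Acta2* UMIs of that library and 0 of *Rgs5*, and the 7 cells at E13.5 held 44 of 514 *Rgs5*, 23 of 113 *Kcnj8* and 17 of 63 *Abcc9* UMIs.

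Among clusters with at least 30 cells at a stage, *Kcnj8* was highest at E12.5 and E13.5 in the unnamed *Pcp4* cluster, at 9.27 (6.16 to 13.4) and 10.3 CPM (7.29 to 14.3). At E14.5 it was at 107 CPM in the *Myh11* cluster, while the unnamed cluster led by *Pappa* and *Prss12* held 43.9% of its UMIs and 50.1% of those of *Abcc9*. At E16.5 proximal, 46.0% of *Kcnj8* and 41.1% of *Abcc9* UMIs were in a fibroblast-like cluster led by *Ly6a*, *Pi16* and *Wnt2*, and 30.8% and 30.4% in the *Myh11* cluster. *Acta2* was highest at E12.5 and E13.5 in an unnamed cluster led by *Alx1* and *Prox1*, at 42.8 and 37.9 CPM, and at E14.5 the *Myh11* cluster held 53.9% of its UMIs at 1851 CPM. *Cspg4* was highest in an unnamed *Wwp2* cluster at E13.5 (19.0 CPM), and in chondrocyte-like cells at E14.5 (49.2 CPM) and in the proximal E16.5 library (182 CPM). *Notch3* at E14.5 was at 71.8 CPM in epithelial-like cells (55.2 to 91.9) and 56.5 in the *Myh11* cluster (43.4 to 72.3), which overlap.

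Between the E16.5 segments *Kcnj8* and *Higd1b* had the lowest ratios of distal to proximal level. The file headers name Cell Ranger 3.0.2 for the proximal and 6.0.1 for the distal library, so segment and version differ together. Over all kept cells *Kcnj8* was at 0.308 times its proximal level in the distal library (0.285 to 0.332), and it was the only gene of the 8 called, where 4.78% of all genes were called lower. *Abcc9* was at 0.50 times (0.467 to 0.536), just short of the rule. The distal ratio was 1.21 for *Rgs5* (1.16 to 1.26), 1.03 for *Notch3* (0.987 to 1.08), 1.52 for *Cspg4*, 0.817 for *Acta2* and 1.47 for *Tagln*. *Higd1b* was too low for the rule, at 0.311 times its proximal level (0.243 to 0.396). The segments also differed in their makeup, with 943 epithelial-like cells proximally and 67 distally, and mural cells were 1.57% of the cells outside epithelial-like clusters proximally (1.34 to 1.84) and 0.788% distally (0.610 to 1.00). The epithelial-like cells held 35976772 of the 234893903 proximal UMIs and 2413530 of the 159290759 distal UMIs. They count in the total behind each all-cell level, so the ratios above also depend on this makeup.

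Inside the mural part the order changed. Distal mural cells had 2.24 times the *Tagln* level of proximal ones (2.13 to 2.36), 1.81 times the *Acta2* level (1.75 to 1.86), 1.78 times the *Rgs5* level (1.70 to 1.87) and 1.49 times the *Notch3* level (1.32 to 1.69). The ratio of *Abcc9* was 1.01 (0.898 to 1.13), and *Kcnj8* and *Higd1b* were at 0.641 (0.567 to 0.725) and 0.575 times (0.442 to 0.741) their proximal levels. *Tagln* was the only gene called, where 7.84% of all genes were called higher and 4.23% lower. In the whole pericyte-like cluster *Higd1b* was the only gene called, at 0.493 times its proximal level (0.379 to 0.635), where 2.33% of all genes were called lower. With cells thinned to 3000 UMIs the *Tagln* ratio was 1.56 and no longer called. Few cells carry the distal level, since 10 cells held 53.3% of all distal *Acta2* UMIs and 28.5% of those of *Tagln*.

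Outside the mural part *Kcnj8*, *Abcc9* and *Acta2* were called lower distally, where 4.83% of all genes were, at 0.253 (0.230 to 0.279), 0.420 (0.384 to 0.458) and 0.377 times (0.359 to 0.395) their proximal levels. *Kcnj8* and *Abcc9* were under 5 CPM distally and entered through the proximal library, so nothing is read from the count. The fibroblast-like clusters that came next for these genes after the pericyte-like cluster also differed in size. The *Wfdc18* cluster had 757 proximal and 67 distal cells, and the cluster led by *Sfrp4* and *Cbln2* had 1390 and 175. Epithelial-like cells, which differed in number as given above, were also among the cells outside the mural part. The part of this makeup in the ratios was not tested. For *Acta2* the mural part and the remaining cells differed in opposite directions, and for *Abcc9* the distal ratio was near 1 in the mural part alone. *Notch3* was at 1.03 times (0.980 to 1.08) and *Tagln* at 1.42 times (1.36 to 1.48) the proximal level there.

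**Figure D5:**
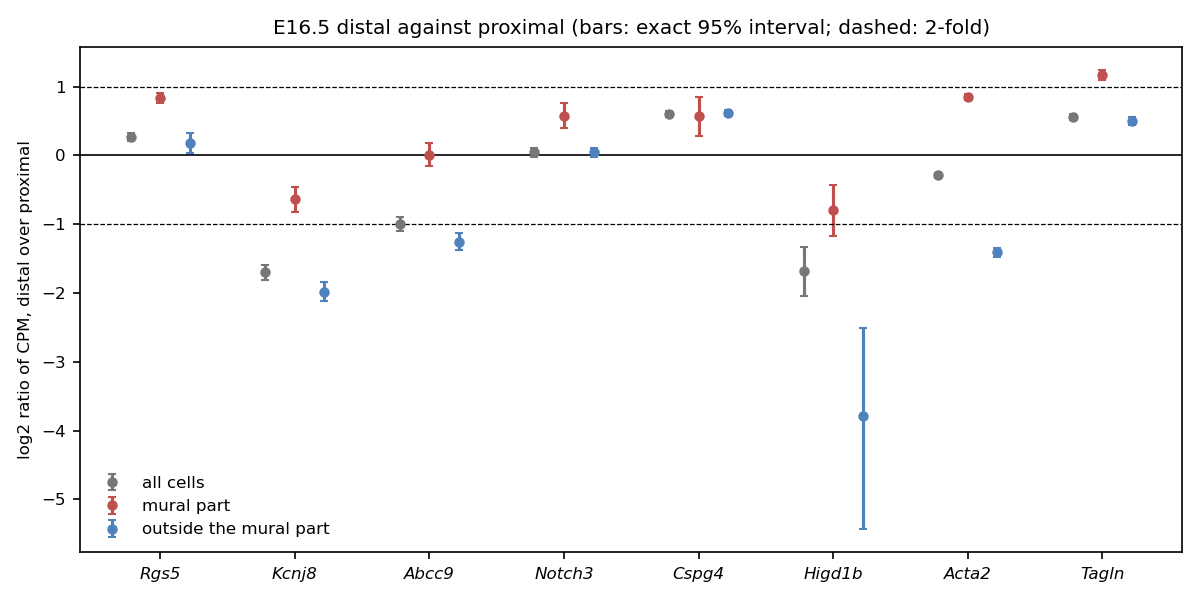
Distal over proximal ratio of each gene at E16.5 (y axis, log2 ratio of CPM) over all cells (grey), in the mural part (red) and outside it (blue), with exact 95% intervals; dashed lines mark 2-fold. *Acta2* lies above 0 in the mural part and below 0 outside it, and *Kcnj8* lies below 0 in all 3 sets.

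At E11.5 sorted MPs were compared with the whole limb libraries, the only contrast with a replicated group. By the paper, tdTomato+ cells lay mostly in the proximal limb at this stage, while the whole limb libraries came from entire limb buds. A cluster led by *Tfap2b* and *Evx2*, for example, held 2 sorted and 500 and 503 whole limb cells. Lineage and position in the limb thus differ together and cannot be told apart. UMIs were summed over 3159 sorted and 5124 and 5362 whole limb cells outside clusters named myogenic-, epithelial-, endothelial-, immune-, erythroid- or glial-like. An unnamed cluster led by the globin genes *Hbb-y* and *Hbb-bh1* was kept, with 3 sorted and 45 and 32 whole limb cells. The sums were compared with the quasi-likelihood test of edgeR, adjusted over 15172 genes by the Benjamini-Hochberg method. *Rgs5* was at 3.76 CPM in the sorted library against 1.30 and 1.496 in the others (log2 fold change 1.25 ± 0.24 SE, edgeR adjusted p = 8.89e-07). *Cspg4* was at 2.81 CPM against 1.43 and 1.37 (0.83 ± 0.26, edgeR adjusted p = 0.00326), and *Acta2* at 3.95 against 2.09 and 1.79 (0.85 ± 0.22, edgeR adjusted p = 0.000417). These 3 genes were higher in the sorted library, above both whole limb libraries. For *Acta2*, 4 cells held 80 of all 148 UMIs of the sorted library, and 124 of the 148 were compared. How many of the 80 were among the 124 was not counted. The level without those 4 cells was not tested.

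*Notch3* and *Tagln* were lower in sorted MPs. *Notch3* was at 19.6 CPM against 21.3 and 26.7 (log2 fold change -0.47 ± 0.13, edgeR adjusted p = 0.000961) and *Tagln* at 14.4 against 20.5 and 18.7 (-0.61 ± 0.14, edgeR adjusted p = 3.34e-05). *Kcnj8* (4, 1 and 0 UMIs), *Abcc9* (6, 5 and 3 UMIs) and *Higd1b* (0 in all 3) were below the filter on low counts. All 5 genes tested passed the threshold, but so did 53.2% of all genes (26.8% higher, 26.4% lower), so the count says little about these genes. The fit had 1 sorted library and 1 residual degree of freedom, takes that library to vary like the whole limb pair, and nothing in the labels says that the pair came from separate collections, so the p-values measure only the spread between these libraries. By DESeq2 *Cspg4* and *Acta2* did not pass (adjusted p = 0.206 and 0.119). Without a filter on low counts *Rgs5* and *Tagln* alone passed. As a log2 ratio of CPM without TMM scaling and with 0.1 CPM added to both levels, *Notch3* was at -0.12 against whole limb 1 alone and -0.45 against whole limb 2 alone, and neither value has a test.

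*Acta2* depended on which cells were counted. Over all kept cells it was at 4.70 CPM in the sorted and 34.2 and 29.4 in the whole limb libraries, a log2 fold change of -2.93, the reverse of the value above. The whole limb clusters with myogenic markers carried it, at 293 and 303 CPM in cells led by *Lbx1* and *Myf5*, and the sorted library held 6 such cells.

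Of the other genes of the mural programme, 4 of 10 tested pericyte-associated genes were higher in sorted MPs by edgeR and 1, *Pdgfrb*, was lower (64.7 CPM against 84.4 and 96.98). Of 13 smooth muscle contractile genes 7 were higher, led by *Myl9* (90.8 CPM against 31.3 and 28.3), and 1, *Cnn1*, was lower. Of 15 Notch and PDGF genes 7 were higher and 4 lower, led by the Notch ligand *Jag1* (3.09 CPM against 29.5 and 27.2). These shares stand beside the 53.2% of all genes called, with list medians of 0.12, 0.47 and 0.43 on the log2 scale against 0.01 over all genes.

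By likeness over the 22 E16.5 clusters, the Pearson correlation of log2(CPM + 10) across clusters, the genes fell into different company among 8652 genes. *Rgs5* was most like *Foxs1* (0.98), *Myh11* (0.98) and *Cpa1* (0.98), and *Higd1b* most like *Myh11* (0.99), *Foxs1* (0.99) and the endothelial *Cdh5* (0.99). *Kcnj8* and *Abcc9* were most like each other (0.97), and then both like *Aoc3* (0.93 and 0.93) and *Stbd1* (0.90 and 0.91), followed by *Fabp4* for *Kcnj8* (0.90) and *D630033O11Rik* for *Abcc9* (0.86). *Cspg4* was most like *Gprc5c* (0.92), *Tns2* (0.91) and *Papss2* (0.90), each highest in chondrocyte-like cells, and had a correlation of 0.18 with *Rgs5*. *Notch3* was most like *Adra2a*, *Sema5b* and *Itga7* (0.81 to 0.80), *Acta2* most like *D630033O11Rik*, *Actg2* and *Cdh5* (0.95 to 0.92), and *Tagln* most like *Dhps*, *Actg2* and *Rem1* (0.81 to 0.78). The clusters share libraries and 1 cluster dominates most of these correlations, which are descriptions only.

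Other genes of the mural programme were followed as lists. Of 14 other pericyte-associated genes, 13 reached 5 CPM in the proximal mural part, and 6 of these (*Rgs4*, *Foxs1*, *Heyl*, *Gja4*, *Art3* and *Gucy1a3*) did so there only, so the list is given by its values. In the other 7 the level in the mural part was 3.11 to 54.4 times that of other cells. *Gja4*, a gap junction gene of small vessels, was at 77.5 CPM in the mural part and 0.151 outside it, and *Gucy1a3*, a subunit of the nitric oxide receptor, at 420 and 4.53. The lowest ratios of the list were 3.11 for *Ndufa4l2* and 4.31 for *Ednra*. Several of these genes were also used to name the cluster, so their level there is part of the definition. Of the smooth muscle contractile genes the highest ratios were those of *Myh11* (130 against 0.424 CPM) and *Myocd* (7.94 against 0.0908), which also reached 5 CPM in the mural part only, and *Sorbs2* and *Itga8* were at 0.674 and 0.685 times the level of other cells. Of the Notch and PDGF signalling genes the highest ratios were those of the PDGF ligand *Pdgfb* (11.2 against 0.225 CPM) and the Notch target *Heyl* (99.7 against 3.64), again under 5 CPM outside, and 2 were called lower, *Pdgfra* at 0.124 and *Notch2* at 0.390 times. Over all genes 12.2% were lower in the mural part. Endothelial cells also express *Pdgfb*, the summed endothelial markers were higher in the proximal mural part (353 CPM) than in the cells outside both clusters (28.4), and their part in the *Pdgfb* value was not tested.

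The same lists set the distal against the proximal mural part. Of the 15 smooth muscle contractile genes 8 were called higher distally and 0 lower, with a median ratio of 2.24 against 1.07 over all genes, where 7.84% of all genes were called higher and 4.23% lower. *Myocd*, a coactivator of smooth muscle genes, was at 28.9 CPM distally and 7.94 proximally, and *Mylk*, the myosin light chain kinase, at 539 and 160, and the lowest ratios were 0.945 for *Des* and 0.965 for *Sorbs2*. With cells thinned to 3000 UMIs 7 of these 8 genes were still called higher and *Itga8* was not, but so few UMIs were left that 25.1% of all genes were called higher. Contractile levels can rest on few cells. For *Tagln*, one of the 8 genes, the median per 10000 UMIs was 0 in the proximal and 1.79 in the distal mural cells, with the highest cells at 91.7 and 131.9. Of 13 pericyte-associated genes 1 was higher and 2 lower, *Rgs4* at 2.69 and *Vtn* and *Art3* at 0.338 and 0.442 times. Of 13 Notch and PDGF genes 0 were higher and 1, the Notch ligand *Dll4*, lower at 0.308 times, which had 5 CPM or more proximally only. Thinned, 2 of the pericyte-associated genes were called higher (*Rgs4* and *Ednra*) and 2 lower, and 4 of the Notch and PDGF genes lower (*Dll4*, *Hey1*, *Hey2* and *Pdgfra*), each of these 4 on 11 UMIs or fewer a side. Endothelial cells also express *Dll4*, the summed endothelial markers were at 123 CPM in the distal and 353 in the proximal mural part, and their part in the *Dll4* value was not tested.

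Over time the lists are given by their values, since 6 of the 9 pericyte-associated genes that reached 5 CPM at E11.5 or E16.5 proximal (*Mcam*, *Ndufa4l2*, *Heyl*, *Gucy1a3*, *Gucy1b3* and *Vtn*) did so at E16.5 only. *Ndufa4l2*, one of the pericyte markers used for naming, was at 218 CPM at E16.5 proximal and 0.286 CPM at E11.5. The E16.5 level was not that of mural cells alone, since cells outside the mural part were at 211 CPM. The other extreme ratios were those of *Vtn*, which encodes vitronectin, at 8.24 CPM with 0 at E11.5, and the endothelin receptor *Ednra*, at 17.2 and 50.8 CPM. *Pdgfrb*, the receptor that draws mural cells to vessels, was at 43.0 and 64.5 CPM. Of the smooth muscle contractile genes *Des* was at 27.2 against 0.952 CPM and *Tpm2* at 85.2 against 26.4, and the lowest ratios were 0.763 for *Tpm1* and 0.776 for *Cald1*. Of the Notch and PDGF genes *Jag1* was at 28.01 against 3.08 CPM. Of 10 genes 3 were called higher, where 14.6% of all genes were, but these were under 5 CPM at E11.5 and entered through E16.5. Another 3 were called lower, led by *Hes1* (190 against 697), where 30.2% of all genes were.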

How the data were processed

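UMI counts per gene and cell were deposited by the authors as raw 10x matrices, which they made with Cell Ranger against mm10. The file headers name version 3.0.2 for the first 5 sorted libraries and 6.0.1 for E16.5 distal, and none for the whole limb pair. No normalization had been applied, and levels, ratios and shares from different Cell Ranger versions may differ for that reason alone. The 8 genes, the gene lists and the tests were chosen with earlier results of these data known. Cells with at least 3000 UMIs and at most 10% mitochondrial UMIs were kept, and counts were summed per library or cluster, or thinned to 3000 UMIs per cell. Clusters (scanpy 1.11.5, Leiden resolution 1, 2000 variable genes without the 8 genes, 50 components, 25 neighbours) were named after the class with the largest share of its markers raised, where at least 3 of them were raised 2-fold and seen in at least 10% of cells. A cluster stayed unnamed where its 10 leading genes held more markers of another class, where they held 3 or more muscle fibre genes (unless it was myogenic-like), or where its cells were far shallower than their library's and none of its own markers led. The mural part is the cluster named pericyte-like at resolution 2. Depth was 31500092 to 234893903 UMIs in kept cells per library.

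The E11.5 comparison used edgeR 4.0.16 on summed counts (TMM scaling, edgeR's own filter), with DESeq2 1.42.0 and limma 3.58.1 as alternatives. All other comparisons had 1 library a side and no test. The count model was tested on simulated data. Genes other than the 8 were named by rule, as the 3 most alike across clusters per gene and the 2 highest and 2 lowest of a list, and the endothelial markers *Cldn5* and *Cdh5* and the genes that lead clusters were named after their values were seen. Alternatives changed thinning, cell filters, doublet removal, resolution and test.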

Additional observations from a re-analysis of the deposited data

How the results depend on the processing

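The share of co-detecting cells moved with depth and definition. Without thinning it was 0.297% at E12.5, 0.453% at E14.5, and 2.15% and 1.02% in the proximal and distal E16.5 libraries. At 1000 UMIs per cell it was 0.0207%, 0.0235%, 0.416% and 0.254% in these 4 libraries and 0 at E13.5. With 2 UMIs of each partner it was 0.0212%, 0.0163% and 0.0358% from E12.5 to E14.5, and 0.450% and 0.320% in the proximal and distal E16.5 libraries, and for 4 or more of the 8 genes it was 0 at E12.5 and 0.0163% at E13.5. The first stage with 3 such cells was E12.5 in 6 of the 9 alternatives, E14.5 for the 2 stricter definitions and E16.5 proximal at 1000 UMIs. Of those 6, all but the unthinned one left the counts from E11.5 to E14.5 at 0, 4, 7 and 8 cells. The settings stricter in depth or definition all moved the stage later, so the 6 are no support for E12.5. Over all E16.5 cells 1 of the 8 genes was 2-fold apart between segments, 2 without epithelial- and chondrocyte-like cells, 2 with thinned cells and 3 outside the mural part. Within the pericyte-like cluster 1 gene was (*Higd1b*), 2 at resolution 0.5 and 0 when thinned, and within the mural part 1 (*Tagln*) and 0 when thinned. In the gene lists of the mural part, 8 contractile, 3 pericyte-associated and 1 Notch and PDGF genes were 2-fold apart, and 7, 4 and 4 when thinned. At E11.5, 5 genes were called, 2 without a filter on low counts (*Rgs5* and *Tagln*) and 3 by DESeq2 (over all genes 8066, 3860 and 4880), and the log2 fold change of *Acta2* was -2.93 over all kept cells. The causes of these changes were not tested. Without whole limb replicate 1 or 2 the log2 ratios of CPM, taken without the TMM scaling of the fold changes, with 0.1 CPM added to both levels and with no test, so that leaving out a library and the scaling are not separated, were 1.27 and 1.47 for *Rgs5*, -0.45 and -0.12 for *Notch3*, 0.98 and 0.93 for *Cspg4*, 1.10 and 0.89 for *Acta2*, and -0.37 and -0.51 for *Tagln*. The 6 genes higher at E16.5 proximal than at E11.5 and the 7 highest in pericyte-like cells were as many under every alternative run for them. Removing cells with the highest doublet scores or with endothelial markers, and leaving out clusters led by blood genes, were chosen after seeing the data, as were the mural part itself and the thinned gene lists in it. No paired analysis was possible because the groups compared share fewer than 2 replicate numbers and each E16.5 segment had 1 library, although both segments may have come from the same limbs. Depth limits *Kcnj8*, *Abcc9* and *Higd1b* before E14.5, where they had 113 UMIs or fewer.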
